A study of Mus musculus with 14 samples.

Results

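The sites described here are 718 stretches of the mouse genome (build GRCm38) at which the C-terminally truncated transcription factor EBF1 dC and the chromatin remodelling ATPase Brg1 were both called in one pro-B cell line, while neither EBF1 nor Brg1 was called in its wild-type (wt) counterpart. They were selected on the measured peak lists of the Abelson virus (A-MuLV) lines. An EBF1 dC peak on chromosomes 1 to 19, X or Y counted when it shared at least 1 bp with a Brg1 peak of the dC line and overlapped no EBF1 peak and no Brg1 peak of the wt line. Of 11147 EBF1 dC peaks, 6454 overlapped no EBF1 wt peak, and 718 of these, 11.1%, met the rule. Their presence with dC and absence with wt in the A-MuLV lines is therefore how they were chosen and not a result. The fetal liver Brg1 lists, the gene annotation and promoter sequence took no part in the choice.

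The study addressed the part of the EBF1 C-terminus in bringing Brg1 to chromatin, using ChIP-seq in 2 kinds of mouse cells, both C57BL/6. The A-MuLV cells were virus-transformed fetal liver pro-B cells from EBF1 fl/fl mice, in which exogenous EBF1, wt or dC, had taken the place of the endogenous protein. The fetal liver cells were c-kit+ lymphocyte progenitors of EBF1 -/- embryos of day 16 to 18, transduced with a retroviral vector carrying GFP and cultured for 14 to 20 days on OP9 stroma with IL7, SCF and Flt3. They received the vector with no EBF1 (empty), EBF1 wt, dC, dPLD (d480-520, with residues 480 to 520 deleted) or F-GATA3 (the C-terminal domain replaced by the TA1 domain of GATA3). All fetal liver groups lacked endogenous EBF1. By their labels, cells with wt or F-GATA3 had reached the pro-B stage, cells with dC or dPLD were partly blocked ahead of that stage, and empty-vector cells were blocked ahead of it, so the construct and the stage cannot be told apart in these libraries. The A-MuLV lines are all labelled pro-B.

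EBF1 binds DNA as a dimer at a palindromic element and, with other factors, sets up the B-lineage programme in lymphoid progenitors. Brg1, encoded by Smarca4, is the motor of BAF and PBAF complexes, which use ATP to move or evict nucleosomes and so open enhancers and promoters. The C-terminal domain of EBF1 lies outside its DNA-binding domain, so a protein without it keeps the part that contacts DNA.

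Promoter sequence was available for windows from 250 bases before to 50 bases after RefSeq transcription starts. It was searched for the core of the EBF1 element, CCCNNGGG, which reads the same on both strands, overlapping matches included. Of 32851 such windows in the genome, 13.7% held the letters. Of the 70 windows under the 718 sites (64 genes), 17 did, which is 24.3% (14.8 to 36.0%). The share was 37.2% (34.8 to 39.6%) under all EBF1 dC peaks and 33.6% (30.1 to 37.3%) of 672 windows under dC-only EBF1 sites with Brg1 in both A-MuLV lines. Parentheses after shares hold exact Clopper-Pearson 95% intervals, which cover counting error only. A match is a description of the letters, and most sites lie outside these windows. The 4 upstream stretches that follow, of 250 bases each, show sites with the core inside the EBF1 dC peak. They were chosen after their values were seen, to include the strongest such promoter (Mxi1) and promoters of different fetal liver behaviour. They are written 5′ to 3′ on the gene's strand, ending at the base before the start, with the core in capitals (RefSeq, GRCm38 patch 6).
Mxi1 (chr19:53329163-53329412, plus strand): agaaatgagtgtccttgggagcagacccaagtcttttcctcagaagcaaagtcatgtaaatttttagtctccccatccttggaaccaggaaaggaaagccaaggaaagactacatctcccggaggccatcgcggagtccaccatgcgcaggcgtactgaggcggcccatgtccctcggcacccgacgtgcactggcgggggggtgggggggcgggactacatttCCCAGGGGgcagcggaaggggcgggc
Zdhhc7 (chr8:120101473-120101722, minus strand): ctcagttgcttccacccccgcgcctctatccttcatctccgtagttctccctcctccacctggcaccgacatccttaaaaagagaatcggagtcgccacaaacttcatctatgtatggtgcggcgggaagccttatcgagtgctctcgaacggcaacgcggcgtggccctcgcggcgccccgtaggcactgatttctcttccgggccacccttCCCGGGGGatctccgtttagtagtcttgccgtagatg
Il6ra (chr3:89913197-89913446, minus strand): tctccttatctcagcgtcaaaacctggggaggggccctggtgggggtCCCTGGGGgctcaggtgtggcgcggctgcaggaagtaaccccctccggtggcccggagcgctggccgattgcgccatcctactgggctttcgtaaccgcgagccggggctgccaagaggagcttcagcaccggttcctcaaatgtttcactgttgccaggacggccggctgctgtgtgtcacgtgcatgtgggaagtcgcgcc
Spryd4 (chr10:128211795-128212044, minus strand): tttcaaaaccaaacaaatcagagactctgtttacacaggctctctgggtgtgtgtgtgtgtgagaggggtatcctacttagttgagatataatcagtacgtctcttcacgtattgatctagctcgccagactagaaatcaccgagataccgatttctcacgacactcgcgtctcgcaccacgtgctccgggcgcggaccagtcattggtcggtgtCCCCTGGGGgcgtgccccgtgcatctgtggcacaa

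The core ended 19 bases before the start of Mxi1, whose product is a MAX partner that antagonises MYC, and lay 54 bp from the EBF1 dC summit. It lay 14 bp from the summit at Zdhhc7, which encodes a palmitoyltransferase, and 22 bp at Il6ra, which encodes the interleukin 6 receptor. At Spryd4 the capitals hold 2 overlapping copies of the core, the one toward the 5′ end 27 bp from the summit. The Mxi1 and Zdhhc7 stretches lie inside the annotated gene bodies, upstream of an internal start. The fetal liver Brg1 peak at the Mxi1 site was called with the wt, dC, dPLD and F-GATA3 constructs and absent for the empty vector, and the Zdhhc7 site had the same pattern, at folds over local background of 7.96 (wt), 10.2 (dC), 8.87 (dPLD) and 5.77 (F-GATA3). The Il6ra site was called in all 5 lists, at 9.03 (wt), 11.0 (dC), 9.42 (dPLD), 7.04 (F-GATA3) and 8.20 (empty vector). The Spryd4 site was called with dC (4.64), dPLD (4.10) and the empty vector (5.22) and not with wt or F-GATA3.

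All values come from deposited lists of peaks, 1 library per group, with no replicate in any group. No test between conditions was possible, and no p-value is given. The lists held 11147 (EBF1 dC), 6155 (EBF1 wt), 24420 (Brg1 dC) and 24493 (Brg1 wt) peaks in A-MuLV cells. The fetal liver Brg1 lists held 29354 (wt), 30301 (dC), 27550 (dPLD), 25072 (F-GATA3) and 17687 (empty vector). Sequencing depth is unknown, so a missing call does not show that Brg1 or EBF1 was missing. The lowest −log10 q was near 10 in the EBF1 and fetal liver lists (10.0), but 1.33 in the Brg1 dC and 1.37 in the Brg1 wt list of A-MuLV cells, so weaker peaks entered those 2 lists. The fold enrichment quoted below is the authors' value at each peak's summit and is used only within 1 list.

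The EBF1 peaks at the 718 sites and the Brg1 peaks at them were of usual strength for their lists. EBF1 dC fold ran from 2.52 to 35.9 with a median of 8.17, against 8.76 over all EBF1 dC peaks. Brg1 dC fold ran from 2.56 to 18.3 with a median of 5.18, against 5.10 over the whole Brg1 dC list and 6.51 at the 1603 dC-only EBF1 sites where Brg1 was called in both lines. The EBF1 and Brg1 summits lay close together, with a median gap of 60 bp, and 477 sites (66.4%) had them within 100 bp. Across the sites the 2 folds were almost unrelated (Spearman 0.137 over 718 sites of the same 2 libraries, given as a description). These are the measures that chose the sites and serve only to describe them.

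**Figure D1:**
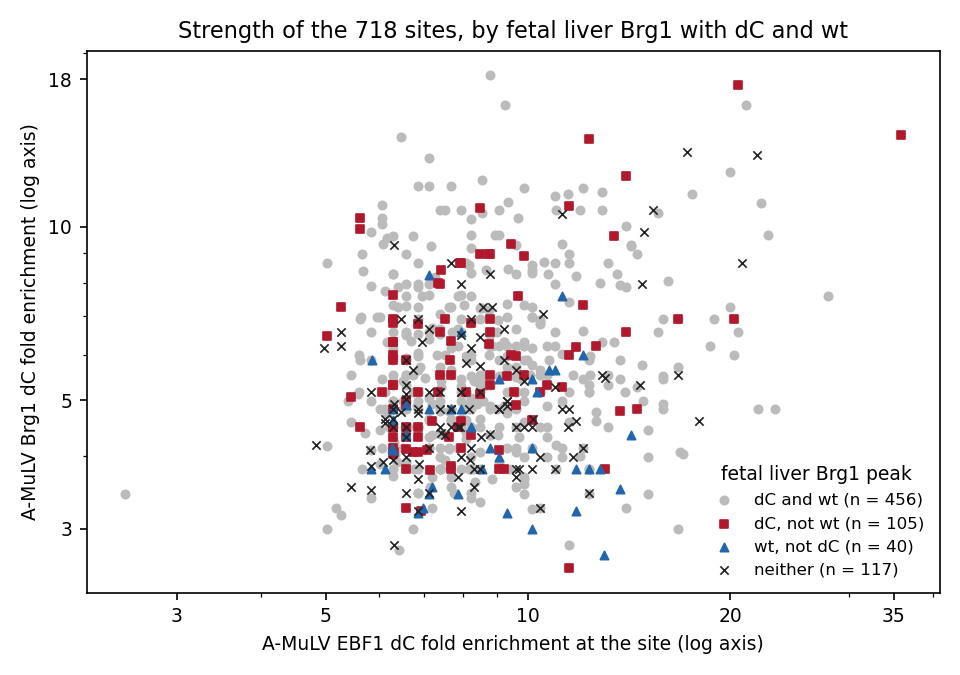
Each point is 1 of the 718 sites. The x axis is EBF1 dC fold and the y axis Brg1 dC fold in A-MuLV cells, both on log axes. Markers show whether fetal liver Brg1 was called with dC and wt, with dC and not wt (105 sites), with wt and not dC (40 sites) or with neither. The 40 triangles sit mostly at low Brg1 dC fold, with a median of 4.14, and the 105 squares spread upward, with a median of 5.51.

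The distances to wt peaks describe how the rule separates the sites, and the Brg1 wt list is longer than the EBF1 wt list (24493 against 6155 peaks). The nearest EBF1 wt peak was at least 104 bp away, with a median of 61370 bp. The nearest Brg1 wt peak was 8 bp away at the closest, with a median of 15046 bp. At 107 sites (14.9%) a Brg1 wt peak stood within 1 kb. Just inside the rule, 30 sites had a Brg1 wt peak within 100 bp. Just outside it, 57 sites were left out for an overlap of 100 bp or less with a Brg1 wt peak, the smallest being 3 bp. At 41 of the sites the Brg1 dC peak itself touched a Brg1 wt peak elsewhere along its length.

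Seen from Brg1, the sites were a small part of the Brg1 dC peaks that had no Brg1 wt peak. Of 8406 Brg1 dC peaks with no Brg1 wt peak, 684 (8.14%) held 1 of the sites, and 7431 (88.4%) overlapped no EBF1 peak of either form. The share without EBF1 over all 24420 Brg1 dC peaks was not counted, so whether 88.4% is unusual is not known. Brg1 peaks called only with wt were not counted here, and the EBF1 lists hold only stronger peaks than the Brg1 lists.

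In fetal liver progenitors, Brg1 was called at most of the sites with dC, dPLD and also with wt EBF1, less often with F-GATA3, and at few with the empty vector. With dC, 561 sites had a Brg1 peak, 78.1% (74.9 to 81.1%), against 53.1% of all EBF1 dC peaks. With dPLD, 527 did, 73.4% (70.0 to 76.6%), against 55.7%. With wt EBF1, 496 did, 69.1% (65.6 to 72.4%), against 58.4%. With F-GATA3 the count was 388, 54.0% (50.3 to 57.7%), near the 52.7% of all EBF1 dC peaks. With the empty vector it was 153, 21.3% (18.4 to 24.5%), near the 19.2% background, and no EBF1 is present in those cells. With the lists held to equal length, the shares against those of all EBF1 dC peaks were 59.6% against 51.1% for dC, 56.8% against 56.3% for dPLD, 48.9% against 58.5% for wt, 38.7% against 55.5% for F-GATA3 and 19.5% against 22.3% for the empty vector. The dC share thus stayed above that of all EBF1 dC peaks under that setting, while the wt and F-GATA3 shares lay below theirs. Every site was chosen for a Brg1 dC peak in A-MuLV cells, which only 5138 of all 11147 EBF1 dC peaks had. Each was also chosen for having no EBF1 wt peak, which held for 6454 of them. An excess, a shortfall or a share near that of all EBF1 dC peaks can therefore come from the choice of sites. This holds here and in the later fetal liver comparisons with all EBF1 dC peaks. The shares over the 6454 dC-only EBF1 peaks alone were not counted. With dC, fetal liver Brg1 was called at 94.8% of dC-only EBF1 sites with Brg1 in both lines. It was called at 16.9% of those with no A-MuLV Brg1.

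Where 2 fetal liver lists differed, dC was the more frequent. At 105 sites Brg1 was called with dC and not wt, and at 40 with wt and not dC. So dC held 72.4% (64.4 to 79.5%) of the sites that differed, against 28.9% over all EBF1 dC peaks, where the split was 400 to 983. All EBF1 dC peaks include those with an EBF1 wt peak, which the rule left out. In the other classes of dC-only EBF1 sites, dC held between 31.6% (Brg1 with wt alone) and 47.7% (Brg1 in both lines). The split was 74 to 43 for dPLD against wt, 63.2% (53.8 to 72.0%), against 35.3% over all EBF1 dC peaks. It was 194 to 21 for dC against F-GATA3, 90.2% (85.5 to 93.9%), against 51.4%, and 125 to 17 for wt against F-GATA3, 88.0% (81.5 to 92.9%), against 77.8%. Against the empty vector the split was 412 to 4 for dC (99.0%) and 358 to 15 for wt (96.0%), near the 98.4% and 98.3% of all EBF1 dC peaks. The 8 splits computed share lists with each other, and the dC list is longer than the wt list (30301 against 29354 peaks) and its peaks are wider (median 1248 against 1103 bp). With every fetal liver list held to its strongest 17687 peaks and the A-MuLV lists of each factor to equal length, 354 sites remained under the rule and dC held 73.2% of those that differed from wt.

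**Figure D2:**
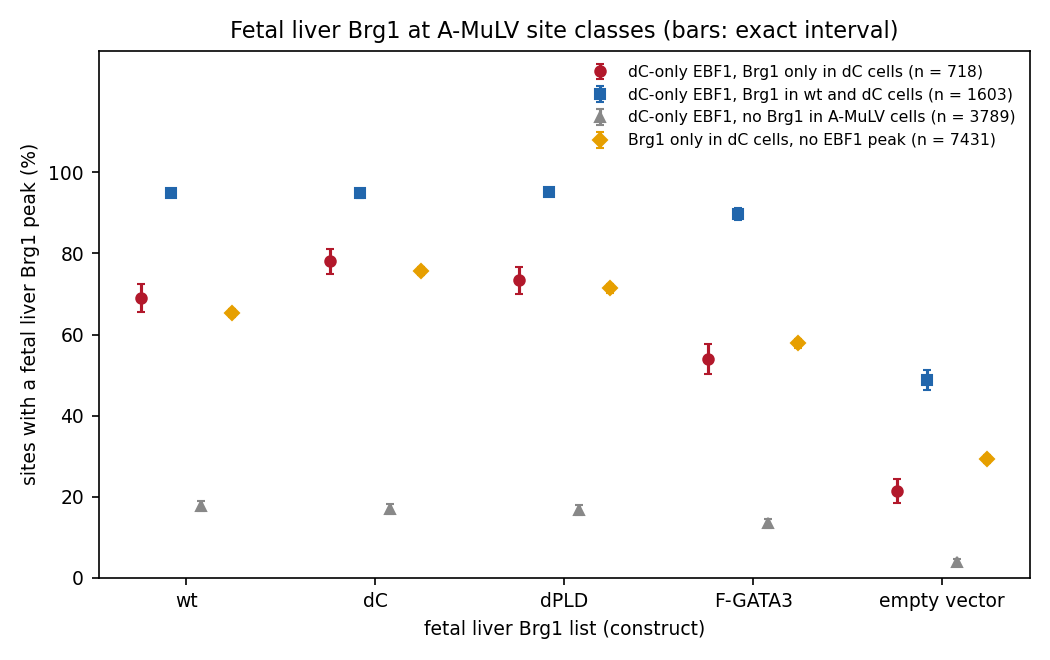
The y axis is the percent of sites with a fetal liver Brg1 peak, and the x axis the construct. Points are site classes of the A-MuLV lines and bars are exact 95% intervals for counting error. At the 718 sites the share runs from 78.1% with dC to 21.3% with the empty vector, and the 7431 Brg1 peaks without an EBF1 peak follow the same order.

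The tilt toward dC was shared with Brg1 sites that had no EBF1 peak. At the 7431 dC-only Brg1 peaks without EBF1, fetal liver Brg1 was called at 75.6% with dC, 71.4% with dPLD, 65.3% with wt, 57.8% with F-GATA3 and 29.3% in empty-vector cells. There 993 were called with dC and not wt and 230 the other way, 81.2% (78.9 to 83.3%). The tilt was thus also seen at dC-only Brg1 peaks with no EBF1 call. The split over all 24420 Brg1 dC peaks was not counted, so this 81.2% has no background beside it. The EBF1 lists start at a −log10 q near 10.0, so a missing call there does not show that EBF1 was missing. The 1603 dC-only EBF1 sites with Brg1 in both lines split nearly evenly, 31 to 34, 47.7% (35.1 to 60.5%). That lies above the 28.9% of all EBF1 dC peaks. Of these sites 95.0% were called with wt and 94.8% with dC. At the 196 sites with EBF1 in both lines and Brg1 with dC alone the split was 11 to 20, 35.5% (19.2 to 54.6%). At the 3789 dC-only EBF1 sites with no A-MuLV Brg1, fetal liver Brg1 was called at 16.9% with dC and 17.6% with wt. They split 161 to 190, 45.9% (40.6 to 51.2%). The 344 dC-only EBF1 sites with Brg1 in the wt line alone split 18 to 39, 31.6% (19.9 to 45.2%). Of those, 63.4% were called with dC and 69.5% with wt. These are shares of sites in single libraries, and the differences between classes were not tested.

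The fetal liver counts are given next by the strength of the A-MuLV peaks, as a description, since those peaks chose the sites. In the lowest of 4 ranges cut at the quartiles of Brg1 dC fold (180 sites, up to 4.35), fetal liver Brg1 was called at 67.2% with dC and 66.7% with wt, and 24 sites had dC and not wt against 23 the reverse. In the highest range (180 sites, from 6.66), the shares were 89.4% and 73.3%, and the split was 31 to 2. The ranges between split 17 to 7 and 33 to 8. At sites with Brg1 in both lines, the same ranges of Brg1 dC fold split 8 to 11, 6 to 6, 9 to 9 and 8 to 8. By EBF1 dC fold, the split went from 32 to 9 below its lower quartile to 21 to 15 above its upper quartile. No test was made of these counts.

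**Figure D3:**
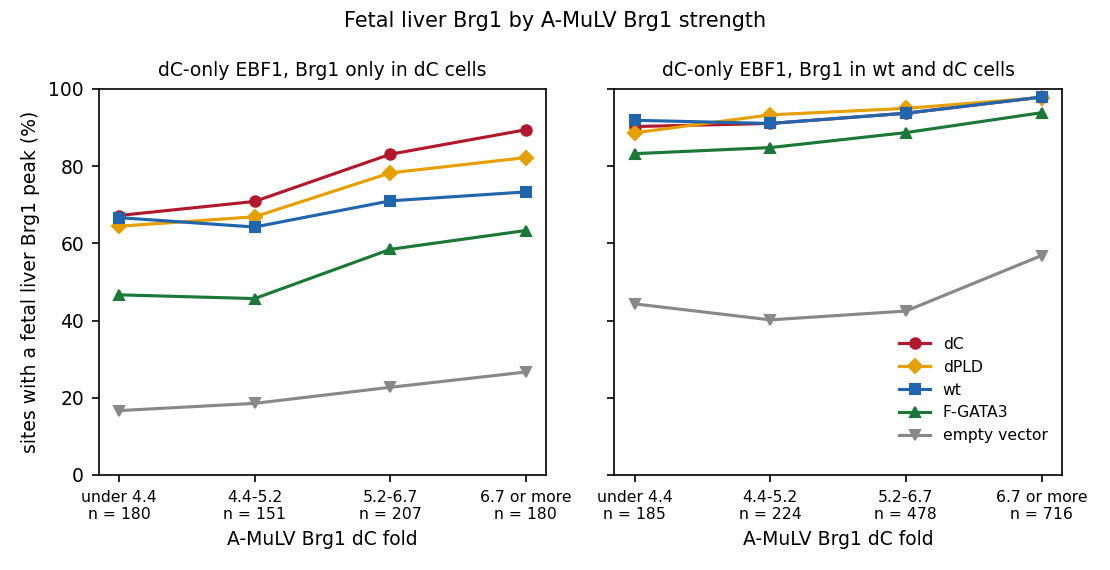
The y axis is the percent of sites with a fetal liver Brg1 peak and the x axis ranges of A-MuLV Brg1 dC fold, cut at the quartiles of the 718 sites. The left panel shows the 718 sites and the right panel sites with Brg1 in both lines. On the left the dC line rises from 67.2 to 89.4% and leaves the wt line, which ends at 73.3%. On the right both run together.

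The most common combination, at 222 sites (30.9%), was a Brg1 peak with all 4 EBF1 versions and none with the empty vector, against 26.6% of all EBF1 dC peaks. A further 127 sites (17.7%, against 17.8%) were called in all 5 lists and 107 (14.9%, against 35.3%) in none. Taken over any EBF1 version, 458 sites (63.8%, against 45.4%) were called with EBF1 and not with the empty vector. At 83 sites (11.6%, against 3.71%) Brg1 was called with wt, dC and dPLD and not with F-GATA3 or the empty vector. The share called in all 5 lists is at its background.

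Sites called with both constructs of the partial block and with neither pro-B construct made up 57 of 718, 7.94% (6.07 to 10.2%), against 1.58% of all EBF1 dC peaks. The reverse, wt and F-GATA3 without dC and dPLD, was found at 11 sites, 1.53% (0.767 to 2.72%), against 2.62%. At dC-only EBF1 sites with Brg1 in both lines the 2 combinations made up 1.19% and 0.686%. They made up 1.53% and 1.45% at those with no A-MuLV Brg1, and 1.45% each at those with Brg1 in the wt line alone. So the reverse was not rarer at the 718 sites than in those classes. Among Brg1 dC-only peaks without EBF1 the same combinations made up 5.48% and 0.431%. In these combinations the labelled stage moves with the construct.

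**Figure D4:**
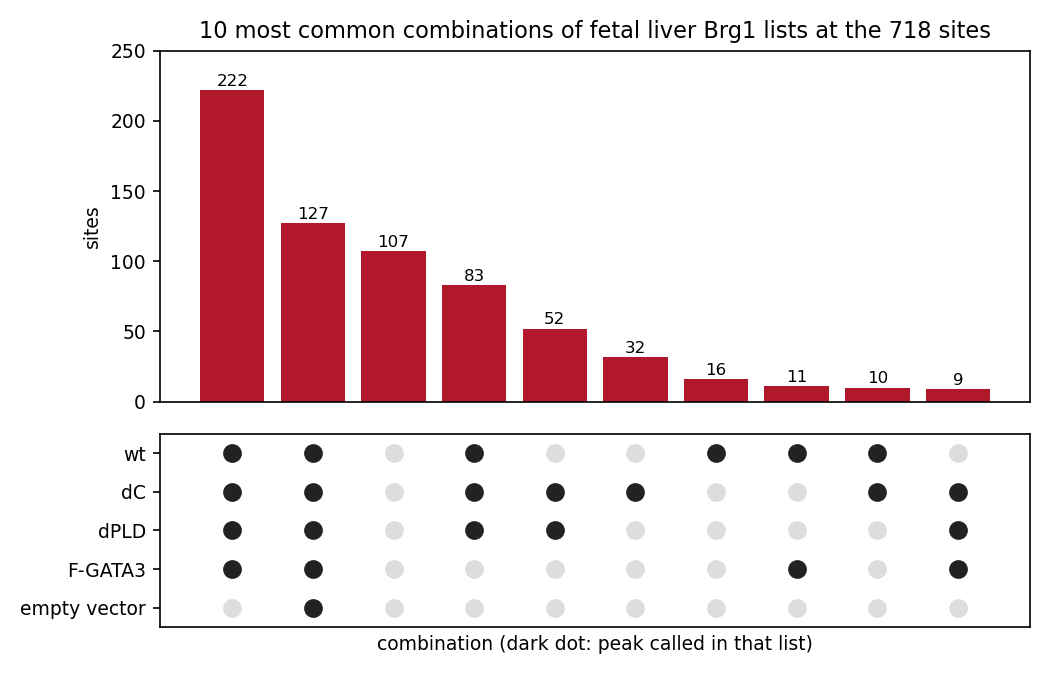
Bars give the number of the 718 sites with each of the 10 most common combinations of fetal liver Brg1 lists, and dark dots below mark the lists in which a peak was called. The tallest bar is the 222 sites called with all 4 EBF1 versions and not with the empty vector.

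The 12 sites of highest EBF1 dC fold differed in their fetal liver pattern. None of them was called with wt and not dC, but only 40 of the 718 sites (5.57%) were, so its absence among 12 says little. The highest, at EBF1 dC fold 35.9 and Brg1 dC fold 14.4, was at chr15:38176288-38176770, outside genes and 42432 bp from Odf1, which encodes a protein of sperm tail fibres. Fetal liver Brg1 was called there with dC (fold 13.3) and dPLD (6.26) and in no other list. The Mxi1 promoter site (chr19:53329159-53329783) came second at EBF1 dC fold 27.9 and Brg1 dC fold 7.60. Its fetal liver folds were 11.1 (wt), 12.1 (dC), 11.2 (dPLD) and 8.55 (F-GATA3), so all 4 EBF1 versions had a peak and the empty vector none.

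Sites inside B3gnt2, which encodes an enzyme extending poly-N-acetyllactosamine chains, and Agpat4, which encodes an acyltransferase of phospholipid synthesis, had that same pattern. The B3gnt2 site (chr11:22847753-22848451, EBF1 dC fold 22.7, Brg1 dC fold 9.67) had fetal liver folds of 8.80 (wt), 11.9 (dC), 10.7 (dPLD) and 8.03 (F-GATA3). At Agpat4 (chr17:12159059-12159570, EBF1 dC fold 22.2, Brg1 dC fold 11.0) they were 11.8, 14.5, 11.9 and 7.04. A site near Kcng3, which encodes a potassium channel subunit, also lacked the empty-vector peak, with folds of 7.84 (wt), 7.24 (dC), 7.50 (dPLD) and 11.4 (F-GATA3). Another pair of the strongest 12 sites had wt, dC and dPLD peaks and no F-GATA3 peak. They lay in Coro6, which encodes a coronin of the actin cytoskeleton (7.68, 6.92 and 4.35), and near 1700010I14Rik (8.55, 9.05 and 9.41).

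In Lrp5, which encodes a Wnt co-receptor, the site at chr19:3655158-3655685 (EBF1 dC fold 23.3, Brg1 dC fold 4.83) was called in all 5 fetal liver lists, with folds of 7.39 (wt), 11.2 (dC), 7.33 (dPLD), 6.30 (F-GATA3) and 7.05 (empty vector). A second site with B3gnt2 as its nearest gene, 141066 bp away (chr11:22692859-22693672), had folds of 13.0, 12.8, 10.7, 11.8 and 13.0. The site in Mkrn2, which encodes a makorin ubiquitin ligase, had 9.10, 12.2, 10.2, 4.84 and 5.65. At these 3 sites a Brg1 peak was present in cells with no EBF1.

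Fetal liver Brg1 with dC and not wt, besides the site near Odf1, was found at strong EBF1 dC sites by Cacna1b and Lrrc4c. The site 16073 bp from Cacna1b, which encodes a voltage-gated calcium channel subunit, had EBF1 dC fold 20.5 and the second highest Brg1 dC fold of all sites, 17.6. Fetal liver Brg1 was called there with dC (9.32), dPLD (6.25) and the empty vector (6.42). In Lrrc4c, which encodes a netrin-G ligand, the site (EBF1 dC fold 20.3, Brg1 dC fold 6.91) was called with dC (12.8) and dPLD (5.90). The site of highest Brg1 dC fold, 18.3, had Naa11, encoding an N-terminal acetyltransferase subunit, as its nearest gene at 57966 bp. It was called with wt (10.3), dC (21.5), dPLD (17.4) and F-GATA3 (7.46).

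The 40 sites called with wt and not dC had lower Brg1 folds in A-MuLV dC cells. The strongest by EBF1 dC fold lay in Fam189a1 (EBF1 dC fold 14.2, Brg1 dC fold 4.35), called with wt alone at 6.01. Asph, which encodes an aspartate hydroxylase, held a site (13.7 and 3.52) called with wt at 5.83 and F-GATA3 at 5.34. Amotl1, which encodes an angiomotin-like junction protein, held a site (13.0 and 2.70) called with wt at 8.77 and F-GATA3 at 6.74.

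Brg1 was called with the empty vector and not with wt at 15 sites, 2.09% (1.17 to 3.42%), against 0.673% of all EBF1 dC peaks. After Cacna1b, the strongest lay in Mrpl23, which encodes a mitochondrial ribosomal protein, with fetal liver folds of 4.70 (dC), 5.05 (dPLD) and 5.43 (empty vector). In Ctbp2, which encodes a transcriptional corepressor, they were 8.13 (dC), 6.36 (F-GATA3) and 7.76 (empty vector).

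Some strong sites had no fetal liver Brg1 peak at all. Those of highest EBF1 dC fold lay in Ttll5, which encodes a tubulin polyglutamylase (EBF1 dC fold 21.9, Brg1 dC fold 13.3), in Ltbp2, which encodes a TGF-beta binding matrix protein (20.8 and 8.63), and near Nrp1, which encodes a semaphorin and VEGF co-receptor (18.0 and 4.60). Over all 107 such sites the median EBF1 dC fold was 8.17, equal to that of the 718, and the median Brg1 dC fold was 4.83.

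Of the 718 sites, 436 lay in the body of a protein-coding gene, 60.7% (57.0 to 64.3%), against 63.1% of all EBF1 dC peaks. Whether they fell in exons or introns was not analysed here. The summit lay within 1 kb of a RefSeq start at 104 of 703 sites, 14.8% (12.3 to 17.6%), against 18.3% of all EBF1 dC peaks. The share in gene bodies is near its background, and the share near a start lies somewhat below its own. The share near a start was 45.3% (42.8 to 47.8%) at dC-only EBF1 sites with Brg1 in both lines and 6.91% (6.11 to 7.77%) at those with no A-MuLV Brg1. The median distance to a start was 15615 bp for the sites and 1697 bp where Brg1 was in both lines. The 15 sites on chromosome 18 are not in the count of starts.

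**Figure D5:**
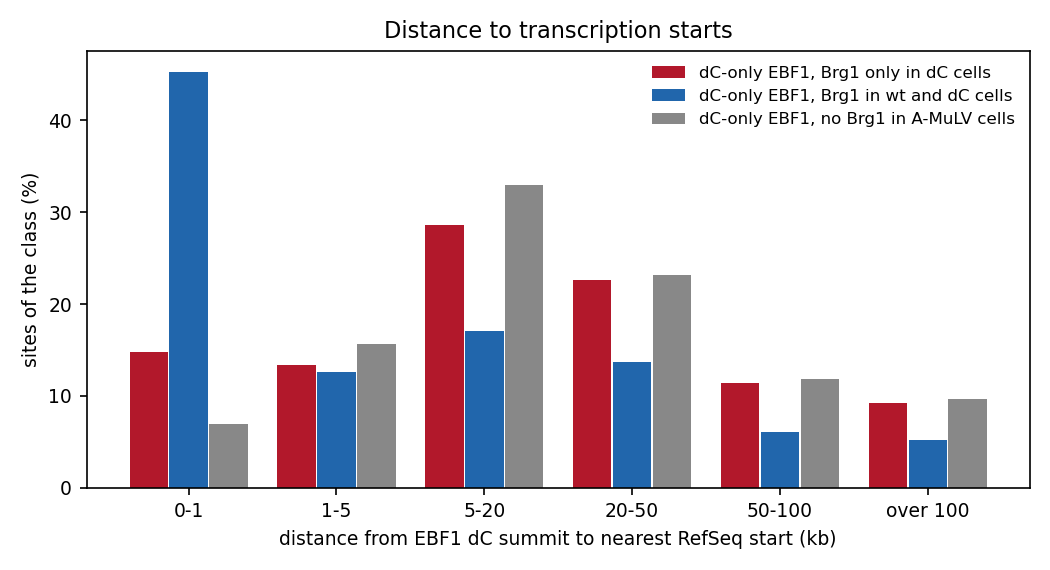
Bars give the percent of sites of each class by distance from the EBF1 dC summit to the nearest RefSeq start, in kb on the x axis. The sites with dC-only Brg1 have 14.8% within 1 kb, between the 45.3% of sites with Brg1 in both lines and the 6.91% of sites with no A-MuLV Brg1.

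The split between dC and wt rested mostly on sites away from starts, and the few near them leave it imprecise there. Among the 104 sites within 1 kb of a start, fetal liver Brg1 was called at 90.4% with dC and 88.5% with wt, and the sites that differed split 7 to 5, 58.3% (27.7 to 84.8%). Among the 599 farther away, the shares were 76.1% and 65.3% and the split was 98 to 33, 74.8% (66.5 to 82.0%). The interval near starts includes the value of the farther sites, so no difference between them was shown. At sites with Brg1 in both lines the split was 7 to 3 near starts, 70.0% (34.8 to 93.3%), and 24 to 30 farther away, 44.4% (30.9 to 58.6%). The summit lay within 1 kb of a start at 21.7% of the sites called with all 4 EBF1 versions and not the empty vector, at 6.67% of those called with dC and not wt, and at 3.77% of those called in none.

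The sites were spread over the genome. They made up between 7.61% (chromosome 7) and 15.6% (chromosome 14) of the dC-only EBF1 sites of a chromosome, apart from chromosome Y, where 0 of 5 met the rule. Only 23 neighbouring pairs lay within 10 kb of each other. The bodies of 410 genes held 1 or more sites and 35 genes held 2 or more. Ablim1 (an actin-binding LIM protein), Arid1b (a BAF subunit), Hivep3 (a zinc finger protein) and Specc1 held 3 each, and these genes are 266251 to 404287 bp long.

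Among the listed genes, sites stood by a few progenitor, BAF and PBAF, ubiquitously expressed and T-lineage genes, and by none of the other lists. A member of the lists counted when a site stood in its body or within 10 kb, which held for 589 of 21887 protein-coding genes, 2.69%. No site met this for 30 B-lineage genes, although 26 of them (86.7%) had an EBF1 dC peak of any kind and 13 a dC-only one. Over all 21887 protein-coding genes, 7202 (32.9%) had a peak of any kind and 5076 a dC-only one. Of those 7202 genes, 8.18% had a site, and the 26 were not tested against that share. At the background of 2.69%, a list of 30 genes would hold less than 1 gene with a site. The lack of a site therefore does not set the B-lineage list apart. The count was 1 of 16 T-lineage genes, 3 of 12 progenitor genes, 3 of 16 BAF and PBAF subunit genes and 2 of 14 ubiquitously expressed genes. It was 0 of 12 innate lymphoid and NK genes, 0 of 14 myeloid genes, 0 of 10 erythroid and megakaryocyte genes and 0 of 11 stromal genes. Over the 9 lists together it was 9 of 135, 6.67%. The lists differ in gene length and were chosen with earlier results known, so these counts are a description. Ebf1 and Smarca4 had no site within 50 kb, although 9 and 5 EBF1 dC peaks lay within 10 kb of them.

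Progenitor genes had 6 sites in or beside them, all called in fetal liver with the 4 EBF1 versions, and 5 of them with the empty vector too. The Hhex sites among them share the same fetal liver peak in each list, so the 6 are not separate readings. Over all 718 sites, 30.9% were called with the 4 EBF1 versions and not the empty vector, and 17.7% in all 5 lists. The empty vector alone or with others had a peak at 21.3%. So few readings do not set the progenitor genes apart. Erg, which encodes a haematopoietic stem cell ETS factor, held a site at chr16:95405526-95406078 with EBF1 dC fold 6.46 and a high Brg1 dC fold of 14.3. Its fetal liver folds were 11.3 (wt), 17.4 (dC), 12.5 (dPLD), 11.6 (F-GATA3) and 5.97 (empty vector), and the median fold over the whole dC list was 7.14.

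Runx1, which encodes a core-binding factor needed for definitive blood formation, held 2 sites. At chr16:92620720-92621179 the fetal liver folds were 8.91 (wt), 12.0 (dC), 14.3 (dPLD), 8.38 (F-GATA3) and 7.60 (empty vector). At chr16:92823519-92823920 they were 9.27, 10.4, 11.7 and 10.2, with no empty-vector peak. Hhex, which encodes a homeobox repressor of early haematopoietic cells, had 3 sites between chr19:37434440 and 37437682. They share a single fetal liver peak in each list, at folds of 5.95 (wt), 6.31 (dC), 5.85 (dPLD), 4.83 (F-GATA3) and 4.13 (empty vector), and are not separate readings.

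The BAF and PBAF genes gave other patterns. Smarca2, which encodes Brm, the alternative ATPase to Brg1, had a site 3231 bp from its body (chr19:26601558-26601841, EBF1 dC fold 6.85, Brg1 dC fold 4.32) that was called in fetal liver with dC alone, at 5.09. Arid1b held 3 sites. The pair at chr17:5004680-5004989 and chr17:5007339-5007687 was called with all 4 EBF1 versions, the first at 6.58 (wt), 5.81 (dC), 8.02 (dPLD) and 5.27 (F-GATA3). The remaining site, chr17:5194036-5194360, was called with dC (9.54) and dPLD (7.33) and not with wt, F-GATA3 or the empty vector. Brd9, which encodes a bromodomain subunit, held a site called with wt (5.38), dC (8.48) and dPLD (6.21).

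Tcf7, which encodes a factor of early T-cell development, held a site at chr11:52266605-52266955 (EBF1 dC fold 8.21, Brg1 dC fold 6.16) with no fetal liver Brg1 peak in any list. Among ubiquitously expressed genes, the site overlapping the transcription start of Hprt, a purine salvage gene, was called with wt (6.55), dC (8.79) and dPLD (4.72). The site 3664 bp from Tubb5, a tubulin gene, was called with all 4 versions, at 5.71 (wt), 8.36 (dC), 8.35 (dPLD) and 8.64 (F-GATA3).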

How the data were processed

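Brg1 and EBF1 ChIP-seq was deposited as 9 narrowPeak lists from 14 samples, the other 5 being inputs, with 1 library per group. Per the submitters' processing notes, the tools were MACS2 2.1.2, Bowtie2 2.3.3.1, deepTools 3.3.1 and SAMtools 1.9, and the genome was GRCm38. Each deposited list gives the peak, its summit, a fold (the ratio of pileup at the summit to local background), a −log10 p, a −log10 q and a deposited score of 10 times the −log10 q. Per the labels, crosslinking used EGS with 2% formaldehyde (fetal liver), EGS with 1% (A-MuLV Brg1) or 1% formaldehyde alone (A-MuLV EBF1). Not given in the sources used here are the calling threshold, duplicate handling and the input paired with each library. Per the series' design text, the fetal liver libraries have a single input.

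Overlaps were computed in Python 3.11.15 with numpy 2.4.6 and pandas 2.3.3, and were tested on simulated intervals. Exact 95% intervals came from scipy 1.17.1 and plots from matplotlib 3.10.9. Peaks on other scaffolds were left out (3 of the EBF1 dC list). Where a site touched several peaks of a list, the highest fold was used. Gene bodies and starts came from RefSeq tables for GRCm38 patch 6, with 21887 protein-coding genes and starts of 27025 genes, and promoter windows on chromosome 18 were not used. The members and the 9 gene lists were chosen with earlier results of these data known. Named sites are the 12 of highest EBF1 dC fold (1 per nearest protein-coding gene), the 3 highest of each fetal liver pattern, sites within 10 kb of a listed gene, and Ebf1 and Smarca4. The site near Naa11, the genes holding 3 sites and the promoters shown besides Mxi1 were chosen after their values were seen. The alternatives tried were a minimum −log10 q of 5 or 20, a required overlap of 50% of the shorter interval, summits within 200 bp, lists of equal length, no wt peak within 1 kb, and wider gene windows. Added after seeing the data were the exclusion of Brg1 dC peaks that touch a Brg1 wt peak, and the splits between fetal liver lists under every alternative.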

Additional observations from a re-analysis of the deposited data

How the results depend on the processing

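The order of the fetal liver shares (dC, dPLD, wt, F-GATA3, empty vector, from high to low) held in each of the 7 alternatives to the site rule, and dC kept the larger part of both splits computed. A −log10 q of at least 5 left 624 sites with shares of 75.3% (wt), 85.4% (dC), 81.1% (dPLD), 63.5% (F-GATA3) and 26.1% (empty vector), against backgrounds equal to those reported, and dC held 83.2% of the sites that differed from wt. A −log10 q of at least 20 left 142 sites with 83.1, 90.1, 87.3, 73.9 and 24.6% in that order (60.4, 53.8, 55.7, 50.5 and 7.44% of all EBF1 dC peaks). There dC held 100% of both splits, but on few sites, 10 against wt (69.2 to 100%) and 23 against F-GATA3 (85.2 to 100%). Summits within 200 bp gave 846 sites with 49.3, 54.0, 51.4, 39.1 and 15.7% (39.7, 32.7, 35.5, 35.7 and 8.99%), and splits of 61.9% (dC against wt) and 76.0% (dC against F-GATA3). Lists of equal length gave 354 sites with 48.9, 59.6, 56.8 and 38.7% for the first 4 lists (58.5, 51.1, 56.3 and 55.5%), so the wt and F-GATA3 shares fell below those of all EBF1 dC peaks there. Extending gene windows to 50 kb raised the listed genes with a site from 9 to 17 of 135. Over all 21887 protein-coding genes the same change raised the count from 589 to 1299. Extending bodies by 10 kb raised the share in genes from 60.7 to 73.4%. In these alternatives the sites or windows themselves change by construction. The other 30 alternative values stayed within the interval of the reported value, or within 1.5 times for counts.

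No paired analysis was possible because each group had 1 library, and for the same reason no library was left out in turn. Peak calling thresholds and unknown depth limit every absence of a peak, and 1 broad fetal liver peak covers 3 sites at Hhex.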

Other observations

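In the wider window of 50 kb, a site 23.8 kb from Rag2 and 37.3 kb from Rag1, which together encode the V(D)J recombinase, was the one site near a listed B-lineage gene. It lies at chr2:101600570-101600902 (EBF1 dC fold 8.21, Brg1 dC fold 10.3). Its fetal liver Brg1 folds were 15.6 (wt), 18.5 (dC), 13.5 (dPLD) and 13.5 (F-GATA3), with no peak for the empty vector. A site 35.9 kb from Mpo, which encodes the granule enzyme myeloperoxidase, had folds of 20.5 (wt), 13.6 (dC), 14.8 (dPLD) and 11.4 (F-GATA3), and none for the empty vector. The site 49.3 kb from Cd5, a lymphocyte surface receptor gene, was called with dC (14.9) and dPLD (7.42) and in no other list, and 1 of the 2 sites near Brd7, which encodes a PBAF subunit, had that same pattern (10.1 and 8.57).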
